A study of Rattus norvegicus with 22 samples.

Results

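The genes described here are the rat's semaphorins of classes 3 to 7, the plexins, the ephrins, the Eph receptors and the repulsive guidance molecules Rgma and Rgmb, picked by gene symbol from the table of counts. They number 52 of 32883 genes, with 20 semaphorins, 9 plexins, 13 Eph receptors, 8 ephrins and 2 repulsive guidance molecules. Their RNA was measured in bulk tissue of the ventral cervical spinal cord, segments C3 to C6, of adult Sprague-Dawley rats aged 3 to 4 months, with 1 library per rat. There were 5 intact males, 5 gonadectomized (GDX) males castrated 2 weeks before the tissue was taken, 6 intact virgin females and 6 females ovariectomized (OVX) 2 weeks before. The intact rats were age-matched, no sham operation is described, and all rats were perfused with saline before the cord was removed and its dorsal side discarded. Between 12371756 and 17571887 reads were counted per library.

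Semaphorins are secreted or membrane-bound ligands whose main receptors are the plexins, and most secreted class 3 semaphorins need neuropilins as co-receptors. Ephrins are bound to the membrane and signal through Eph receptor tyrosine kinases on a neighbouring cell, with signals running into both cells. Repulsive guidance molecules bind neogenin and also act as co-receptors for bone morphogenetic proteins; all these families steer axons and blood vessels in development and, in the adult cord, are known from myelinating cells, vessels, synapses and injury scars.

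Levels are given as CPM, a gene's reads per library at a common library size, with that size scaled by the trimmed mean of M-values (TMM). CPM is not divided by transcript length, so levels are compared between rats and not between genes. Differences are log2 fold changes from edgeR's quasi-likelihood test. Their standard error (SE) was worked back from the log2 fold change and the test's F statistic, so it is not independent of the p-value. The p-values were adjusted by Benjamini and Hochberg over all genes tested, and a gene was called at an adjusted p under 0.1. Of the 52 members, 51 passed the filter on low counts in each comparison. The exception was Efna4, an ephrin of the A class, with 1 to 17 reads per library and group means between 0.246 and 0.491 CPM.

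The members together summed to 1921 ± 55.2 CPM (SD, n = 5) in intact males, 1930 ± 85.9 CPM (SD, n = 5) in GDX males, 1902 ± 56.5 CPM (SD, n = 6) in intact females and 1929 ± 61.8 CPM (SD, n = 6) in OVX females. These sums, most of which are semaphorin and plexin reads, overlapped between all groups. Ephrins alone summed in intact males to 32.1 ± 2.45 CPM (SD, n = 5), against 37.9 ± 3.18 CPM (SD, n = 5) for GDX males, and Rgma with Rgmb to 61.6 ± 4.79 CPM (SD, n = 5) and 74.1 ± 6.47 CPM (SD, n = 5), with overlap in both. Within each family the member with the most reads was Sema4d, a membrane semaphorin of oligodendrocytes that binds plexin B1, with group means between 244 and 280 CPM. The corresponding plexin was Plxnb3, a plexin of the oligodendrocyte lineage that binds Sema5a, with group means between 137 and 156 CPM. Among the Eph receptors it was Epha5, a receptor of A-class ephrins on neurons, at 55.9 to 61.4 CPM, and among the ephrins Efnb2, a transmembrane ephrin of arterial endothelium and other cells, at 8.69 to 11.9 CPM. Rgma had more reads than Rgmb in each group, with group means between 37.9 and 50.2 CPM.

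The tissue labels were held against marker genes. Of 5 cervical Hox genes, Hoxb5, Hoxc4 and Hoxc5 were measured and Hoxa4 and Hoxa5 were at or near 0, with the list summing to between 27.6 and 33.0 CPM in the group means, while 5 lumbar Hox genes summed to between 0.172 and 0.277 CPM. The Y-linked genes Kdm5d and Eif2s3y had reads in every male and none in any female, while Ddx3y had 4 to 27 reads in every rat of both sexes. Average input fragment size, as the study tabulates it per library, falls into a short and a long class. Rats are numbered here as in their sample titles. The study's table numbers the males of each group without gaps, so its Intact Male 4 is intact male 5 here. All 11 libraries of GDX and OVX rats are short, as are those of intact females 1 and 4 and of intact males 2 and 5, while the remaining 7 intact rats have long-class libraries. Gonadectomy and fragment class therefore overlap in part. Values within the short class are given beside some of the results, and a figure shows them for every member called in males.

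The comparison of GDX with intact males asked what loss of the testes changes in males. It called 11 of 51 members with edgeR, 7 higher and 4 lower in GDX males. DESeq2 called 12 beside 13.8% of genes, without Efnb2 and with Efnb3 and Sema4d in addition. Of all 14931 genes tested 13.4% were called, 6.78% higher and 6.58% lower. By family, 3 of 20 semaphorins, 3 of 9 plexins, 2 of 13 Eph receptors, 2 of 7 ephrins and 1 of 2 repulsive guidance molecules were called. The class 3 semaphorins had 6 of 7 log2 fold changes above 0, with a median of 0.22, and the semaphorins of classes 4 to 7 had 11 of 13 below 0, with a median of -0.16, beside a median of 0.00 over all genes. These counts above and below 0 were the same with relative log expression (RLE) scaling and with DESeq2's size factors. The scalings hardly moved the values, with class 3 medians of 0.220 (TMM), 0.221 (RLE) and 0.219 (DESeq2), so the equal counts add little. The 3 B-class ephrins were all above 0 and the 4 A-class ephrins tested had 1 above 0.

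Sema3b (ENSRNOG00000016512), a secreted semaphorin that acts through neuropilins, was the ligand with the smallest p. It stood at 9.44, 10.3, 8, 8.61 and 9.59 CPM in the 5 intact males and at 14.2, 14.4, 15.5, 17.3 and 12.3 CPM in the 5 GDX males. Every GDX male lay above every intact male, and the mean was 1.6 times as high. The log2 fold change was 0.67 (SE 0.10), with an adjusted p of 0.00472 in edgeR's quasi-likelihood test. Among libraries of the short class, with 2 intact males left, it was 0.64 (edgeR adjusted p = 0.0859). In females Sema3b ranged from 10.8 to 18.4 CPM, median 15.3, in intact rats and from 12.6 to 19.0 CPM, median 15.7, in OVX rats. All 5 GDX males lay inside the range of the intact females, and all 5 intact males lay below both female groups, with intact male 2 the closest.

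Sema5b (ENSRNOG00000002238) and Sema6b (ENSRNOG00000045998), transmembrane semaphorins of which the latter binds A-class plexins, fell in GDX males. Sema5b was at 12.5, 12.2, 8.75, 12.9 and 11.6 CPM in intact males and at 10.1, 8.81, 9.19, 7.25 and 8.15 CPM in GDX males. The ranges overlapped through intact male 3, the only intact male under 11 CPM. The log2 fold change was -0.42 (SE 0.12, edgeR adjusted p = 0.0353), and -0.53 in the short class alone (edgeR adjusted p = 0.0913). Sema6b was at 34.7, 40.4, 30.1, 33.7 and 36.0 CPM in intact males and at 36.5, 28.4, 24.8, 21.1 and 24.8 CPM in GDX males. GDX male 1 lay among the intact males and the other 4 GDX males below all of them. Its log2 fold change was -0.37 (SE 0.12, edgeR adjusted p = 0.0625), and the call ended without intact male 1, 2 or 6 or GDX male 4, 5 or 6, with edgeR adjusted p-values between 0.112 and 0.153 and log2 fold changes between -0.37 and -0.30.

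Among the receptors, Plxnd1 (ENSRNOG00000025209), the plexin of vascular endothelium that binds Sema3e, rose in GDX males. It was at 15.6, 17.9, 16.0, 15.0 and 15.0 CPM in intact males and at 23.4, 22, 19.1, 26.1 and 20.5 CPM in GDX males. The groups did not overlap, and the log2 fold change was 0.48 (SE 0.09, edgeR adjusted p = 0.0069). Plxnb2 (ENSRNOG00000007133), a receptor of class 4 semaphorins, was at 58.8, 55.6, 56.4, 61.0 and 55 CPM in intact males and at 67.2, 71.2, 61.6, 78.9 and 66.3 CPM in GDX males. These groups did not overlap either, although GDX male 4 exceeded intact male 5 by under 1 CPM. For Plxnb2 the log2 fold change was 0.26 (SE 0.06, edgeR adjusted p = 0.0194). Plxna4 (ENSRNOG00000013072), which pairs with neuropilins for class 3 semaphorins and binds class 6 semaphorins directly, was at 62.1, 62.9, 57.3, 58.6 and 65.7 CPM in intact males and at 54.9, 56.3, 43.2, 42.3 and 45.8 CPM in GDX males. All GDX males lay below all intact males, and GDX males 1 and 2 lay nearest to them. Its log2 fold change was -0.34 (SE 0.08, edgeR adjusted p = 0.0157).

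On the ephrin side, Efnb1 (ENSRNOG00000006877), a transmembrane ligand of EphB receptors, had the largest log2 fold change of the called members. It was at 3.52, 2.88, 3.24, 2.42 and 2.36 CPM in intact males and at 3.29, 3.54, 6.62, 6.90 and 6.65 CPM in GDX males, from 36 to 102 reads per library. GDX males 4, 5 and 6 stood at about the same level above the rest, and GDX male 1 lay within the range of the intact males. Its log2 fold change was 0.90 (SE 0.24, edgeR adjusted p = 0.0292). Efnb2 (ENSRNOG00000014648) was at 8.88, 9.37, 7.32, 9.29 and 8.60 CPM in intact males and at 11.1, 9.79, 9.25, 13.1 and 11 CPM in GDX males, with GDX male 4 inside the range of the intact males. Its log2 fold change was 0.31 (SE 0.11, edgeR adjusted p = 0.0941), and DESeq2 did not call it (adjusted p = 0.103). With edgeR the call held only without GDX male 2 or 4. Leaving out any 1 of the other 8 males ended it, with edgeR adjusted p-values from 0.115 to 0.235 and log2 fold changes from 0.23 to 0.34.

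Ephb4 (ENSRNOG00000045952), the receptor of Efnb2 that marks venous endothelium, was at 4.79, 6.12, 4.98, 4.27 and 5.25 CPM in intact males and at 6.97, 6.55, 7.43, 7.11 and 6.26 CPM in GDX males. The groups did not overlap, with intact male 2 just under GDX male 6. For Ephb4 the log2 fold change was 0.43 (SE 0.12, edgeR adjusted p = 0.0461), and the edgeR adjusted p was 0.101 without intact male 1, 0.105 without intact male 5 and 0.102 without GDX male 5, with log2 fold changes of 0.41, 0.37 and 0.41. Epha10 (ENSRNOG00000037340), an Eph receptor whose kinase domain is thought to lack activity, fell: it was at 24.0, 27.8, 21.1, 25.4 and 22.5 CPM in intact males and at 22.5, 22.9, 17.0, 16.7 and 19.3 CPM in GDX males. GDX males 1 and 2 lay inside the range of the intact males and the other 3 below it. Its log2 fold change was -0.30 (SE 0.10, edgeR adjusted p = 0.0765), and the call ended without intact male 1, 2 or 5 or GDX male 4, 5 or 6, with edgeR adjusted p-values from 0.131 to 0.183 and log2 fold changes from -0.30 to -0.24.

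Rgma (ENSRNOG00000012874), a membrane-anchored ligand of neogenin that inhibits axon growth, was at 31.6, 43.5, 36.7, 41.0 and 36.5 CPM in intact males and at 48.9, 51.3, 45.5, 54.7 and 50.5 CPM in GDX males. Every GDX male lay above every intact male, and the intact males of the short class, 2 and 5, were the highest of the intact males. In intact females the short-class rats, 1 and 4, were instead the lowest, at 48.05 and 45.3 CPM (others 48.92 to 52.17). Long against short libraries of all intact rats called 0 of the 2 repulsive guidance molecules (smallest edgeR adjusted p = 0.904). For Rgma the log2 fold change was 0.40 (SE 0.08, edgeR adjusted p = 0.00848). It was 0.25 in the short class alone (edgeR adjusted p = 0.144) and 0.25 with fragment class as a term (edgeR adjusted p = 0.13). These are 0.614 and 0.611 times the value with all males, and neither is called. Both fits set the GDX males against intact males 2 and 5. Rgmb, its relative, was not called.

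**Figure D1:**
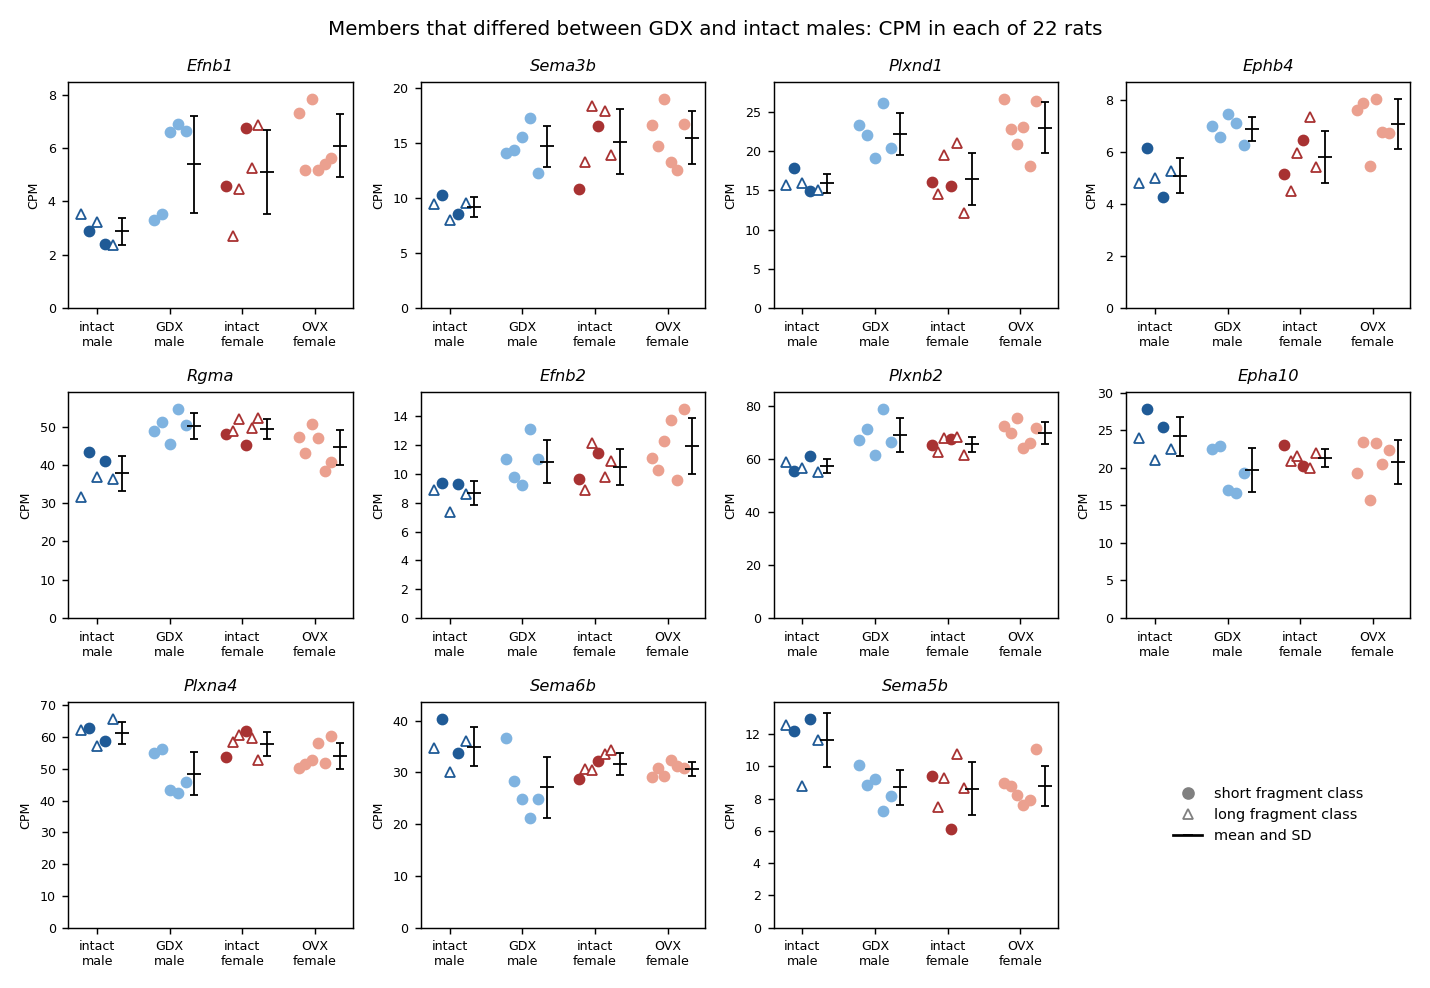
CPM of the 11 members called in GDX against intact males, 1 point per rat in each of the 4 groups (5, 5, 6 and 6 rats); filled circles are short-class and open triangles long-class libraries, and the black bar is the mean ± SD. Every GDX male lies above every intact male for Sema3b, Plxnd1, Ephb4, Rgma and Plxnb2 and below for Plxna4, and GDX males 1 and 2 lie apart from the other 3 for Efnb1.

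Fragment class was also tested by itself, long against short within the 11 intact rats with sex as a term. It called 0 of 51 members and 0% of 15723 genes with edgeR, and DESeq2 was not run on it. At an unadjusted p under 0.05 there were 4 members and 1218 of all genes. Of these members 3 were class 3 semaphorins, a class with 6 of 7 log2 fold changes of long over short above 0 and a median of 0.13. With fragment class as a term in the male comparison, 6 of 51 members were called beside 5.33% of all genes, and 4 of them, Epha10, Plxnd1, Sema3b and Sema5b, were among the 11. In short-class libraries alone 4 members were called beside 2.83% of genes, of which Sema3b and Sema5b were among the 11. The others of the 11 lost their call there, with edgeR adjusted p-values from 0.112 for Epha10 to 0.48 for Efnb2. All 11 kept their sign in both fits, with a median size of 0.943 and 0.945 times the value with all males. No GDX library is long, so the fit with the term also sets the GDX males against intact males 2 and 5. The 2 fits are therefore not separate checks. Fewer rats enter the second fit and the term uses up a degree of freedom, so a lost call there is not a smaller difference by itself.

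Markers of some other cell types differed in the same comparison. The meninges and fibroblast list, 14 of whose 15 genes were matched by symbol, summed to 218, 144, 152, 100 and 77.3 CPM in intact males and to 203, 319, 467, 646 and 507 CPM in GDX males, with Col1a1 the most abundant gene and Ogn under 0.5 CPM. GDX male 1 lay inside the range of the intact males and GDX males 4, 5 and 6 were the highest. These 3 were also the highest GDX males for Efnb1 and the lowest for Plxna4, Epha10 and Sema6b. The other called members did not follow this order. GDX male 4 was the lowest GDX male for Rgma, Plxnd1, Plxnb2 and Efnb2, and GDX male 6 for Sema3b and Ephb4. For Sema5b, GDX male 4 lay above GDX male 2. All 13 list members tested were called higher in GDX males. Of 9 endothelial genes 7 were called higher (Flt1 the most abundant), and the list summed to 123 ± 16.1 CPM (SD, n = 5) in intact and 181 ± 23.4 CPM (SD, n = 5) in GDX males. Of 8 genes of pericytes and smooth muscle 4 were higher, with Myh11 the most abundant. Of 12 neuronal genes 5 were called lower, among them Slc17a6 (log2 fold change -0.31, SE 0.06) and Slc6a5 (-0.37, SE 0.07), with Nefm the most abundant; the list summed to 17184 ± 2941 CPM (SD, n = 5) in intact and 14413 ± 1096 CPM (SD, n = 5) in GDX males. Of 8 astrocyte genes Gfap and Aqp4 were called higher and Fgfr3 lower, of 10 oligodendrocyte genes Mbp and Ermn were higher, and of 9 motor neuron genes tested Slc18a3 was lower. In bulk tissue more cells of a type and more RNA per cell cannot be told apart.

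When the level of the fibroblast and meninges markers (average of their log2 CPM) entered the male comparison as a term, 0 of 51 members were called beside 0.0536% of all genes. The list differs between the groups compared, so the term also takes up part of the difference between GDX and intact males. The log2 fold change of Rgma was then 0.38, of Sema3b 0.52, of Plxnd1 0.36 and of Ephb4 0.35. That of Plxna4 was -0.08, of Epha10 -0.06, of Sema5b -0.20, of Efnb2 0.14 and of Plxnb2 0.17, and 2 turned their sign, Efnb1 to -0.19 and Sema6b to 0.01. Over the 11 the median size was 0.471 times the value without the term. The edgeR adjusted p-values ranged from 0.668 for Sema3b to 0.998 for Sema6b. What part the marker genes' cells have in the members' differences was not tested further.

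**Figure D2:**
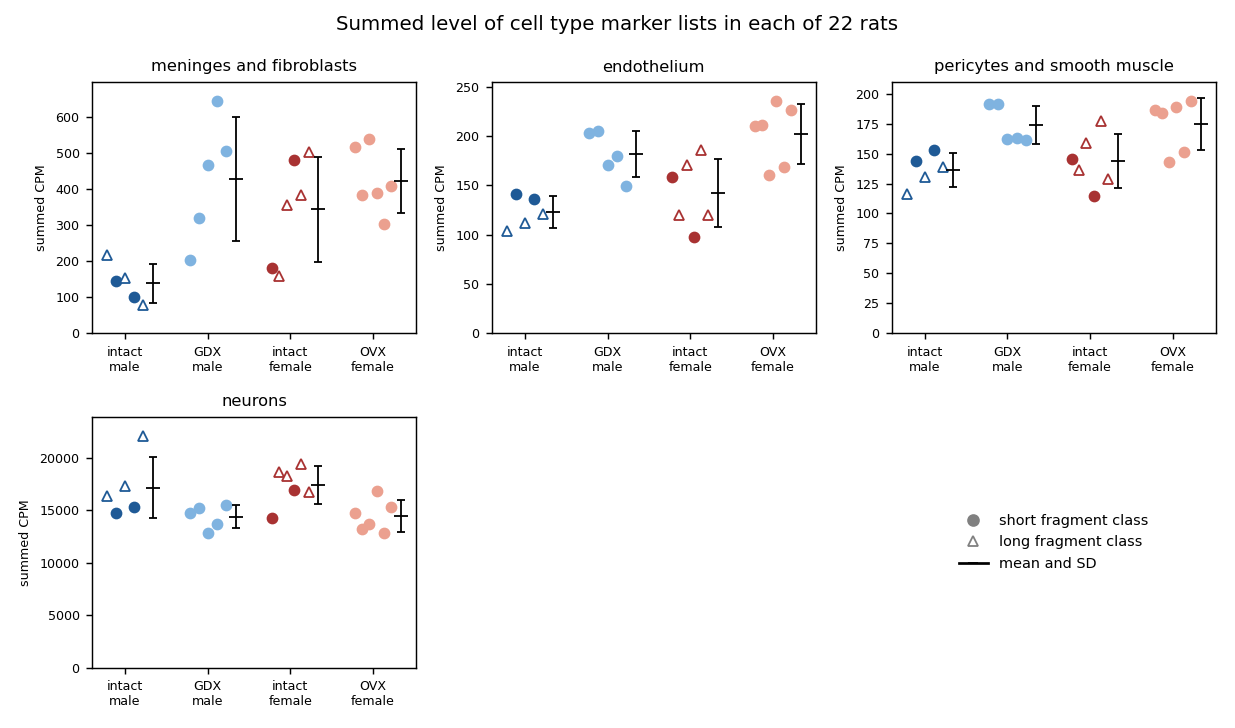
Summed CPM of 4 cell type marker lists, 1 point per rat in each of the 4 groups; filled circles are short-class and open triangles long-class libraries, and the black bar is the mean ± SD. The meninges and fibroblast sum is lowest in intact males (77.3 to 218 CPM), and the endothelial sum is higher in GDX than in intact males with no overlap.

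**Figure D3:**
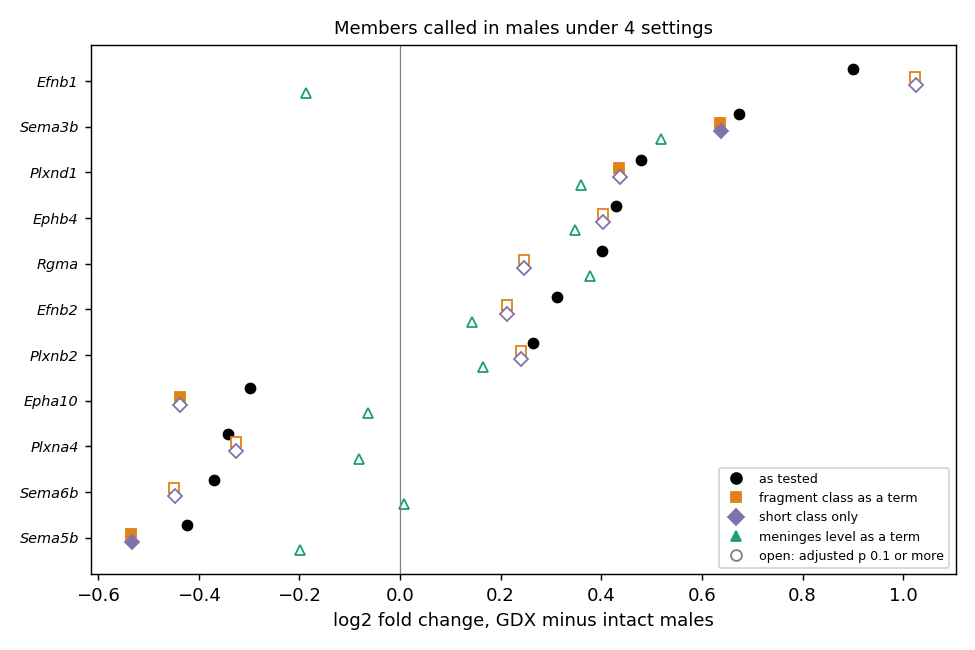
Log2 fold change of GDX minus intact males for the 11 called members with the test as run, with fragment class as a term, in short-class libraries alone and with the meninges and fibroblast level as a term; filled points have an adjusted p under 0.1. Points keep their side of 0 for 9 of the 11 members, and Efnb1 and Sema6b cross it with the meninges term.

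The promoters of some members called in GDX males are printed to show their sequence. Those of Ephb4, Efnb2 and Epha10 were also matched and are not printed. RefSeq windows from 250 bases before to 50 after the gene start, on build GRCr8, matched 42 of the 52 members by symbol, with 6 of the 7 called higher and 3 of the 4 called lower in GDX males; the counts themselves were made on Rnor_6.0. Capitals mark matches, on either strand, to the androgen half-site AGAACA, the estrogen half-site AGGTCA, each one's full site with 3 bases between inverted half-sites (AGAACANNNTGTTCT and AGGTCANNNTGACCT, which contain the half-sites) and the GC box GGGCGG. The first 4 rose and the last 2 fell in GDX males. They are Rgma on chr1:136538532-136538831 (plus strand), Plxnb2 on chr7:122137899-122138198 (minus strand), Plxnd1 on chr4:150715138-150715437 (minus strand), Efnb1 on chrX:68297279-68297578 (plus strand), Sema5b on chr11:78730540-78730839 (minus strand) and Sema6b on chr9:1047693-1047992 (minus strand).
Rgma: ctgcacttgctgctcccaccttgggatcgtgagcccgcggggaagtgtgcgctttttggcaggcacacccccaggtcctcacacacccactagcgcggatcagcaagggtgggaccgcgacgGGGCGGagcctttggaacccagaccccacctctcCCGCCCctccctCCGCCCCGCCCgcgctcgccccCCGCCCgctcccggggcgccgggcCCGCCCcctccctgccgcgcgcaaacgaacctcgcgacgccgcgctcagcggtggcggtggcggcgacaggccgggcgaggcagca
Plxnb2: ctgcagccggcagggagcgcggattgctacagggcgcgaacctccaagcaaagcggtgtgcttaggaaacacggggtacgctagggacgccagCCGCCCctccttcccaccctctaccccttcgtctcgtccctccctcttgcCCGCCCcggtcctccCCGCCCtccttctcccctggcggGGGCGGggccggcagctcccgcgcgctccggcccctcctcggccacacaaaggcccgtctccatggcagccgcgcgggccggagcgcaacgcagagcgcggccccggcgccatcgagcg
Plxnd1: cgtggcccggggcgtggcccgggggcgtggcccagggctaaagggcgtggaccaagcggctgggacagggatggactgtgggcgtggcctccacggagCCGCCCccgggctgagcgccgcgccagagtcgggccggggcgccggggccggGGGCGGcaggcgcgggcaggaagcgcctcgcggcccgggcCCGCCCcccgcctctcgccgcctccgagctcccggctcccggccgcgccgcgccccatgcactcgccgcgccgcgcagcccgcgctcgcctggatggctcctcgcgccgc
Efnb1: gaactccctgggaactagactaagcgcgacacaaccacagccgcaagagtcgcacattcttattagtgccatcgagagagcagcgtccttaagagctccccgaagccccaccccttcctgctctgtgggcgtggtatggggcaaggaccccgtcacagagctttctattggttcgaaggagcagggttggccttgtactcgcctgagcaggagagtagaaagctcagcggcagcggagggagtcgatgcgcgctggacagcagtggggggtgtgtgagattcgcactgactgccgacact
Sema5b: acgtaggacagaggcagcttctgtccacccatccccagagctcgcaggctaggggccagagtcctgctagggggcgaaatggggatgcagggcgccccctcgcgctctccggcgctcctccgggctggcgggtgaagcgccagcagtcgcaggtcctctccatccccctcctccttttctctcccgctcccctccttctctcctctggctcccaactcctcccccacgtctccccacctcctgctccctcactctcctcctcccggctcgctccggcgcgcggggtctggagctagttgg
Sema6b: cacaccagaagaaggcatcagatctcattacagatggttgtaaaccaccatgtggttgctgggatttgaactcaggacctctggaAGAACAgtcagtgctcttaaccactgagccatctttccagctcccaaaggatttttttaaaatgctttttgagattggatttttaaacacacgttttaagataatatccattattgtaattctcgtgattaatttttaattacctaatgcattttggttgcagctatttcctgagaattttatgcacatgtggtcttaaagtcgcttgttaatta

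The GC box was found in 4 of the 6 windows of members that rose (Ephb4, Plxnb2, Plxnd1 and Rgma) and in 0 of the 3 that fell, beside 33.1% of all 33469 windows and 24 of 42 member windows. The androgen half-site was in 0 of the 6 and 1 of the 3, that of Sema6b, beside 20.7% of all windows and 2 of 42 member windows. The estrogen half-site was in none of these 9, in 16.2% of all windows and in 1 of 42 member windows, that of Sema3g. The full sites were in 0 of 42 member windows and in 0.0149% and 0.00896% of all windows. The share of G and C was higher in member windows, with a median of 63.5% beside 51.7% over all. The median was 74.3% for the 6 that rose (59% to 83%) and 55% for the 3 that fell. Those 3 ran from 36.3% for Sema6b, the window with the androgen half-site, to 68.7% for Sema5b, so the ranges overlapped. A match is a run of letters and is no measure of binding.

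The comparison of OVX with intact females asked the same of the ovaries. It called 0 of 51 members with edgeR, beside 0.0335% of 14910 genes. At an unadjusted p under 0.05 there were 8 members and 1516 of all genes. DESeq2 called 1 member, Plxnd1, beside 1.2% of genes. Plxnd1 ranged from 12.1 to 21.1 CPM, median 15.8, in intact and from 18.1 to 26.7 CPM, median 23.0, in OVX females, and its log2 fold change was 0.48 (SE 0.12, edgeR adjusted p = 0.171 and DESeq2 adjusted p = 0.0239). The groups overlapped, with 4 of 6 OVX rats above all intact females, and the size was the same as in males, 0.48. The other members with the smallest p above 0 were Sema3g, a secreted semaphorin of endothelial cells (log2 fold change 0.58, SE 0.24, edgeR adjusted p = 0.414), and Sema4d (0.13, SE 0.05, edgeR adjusted p = 0.416). Sema3g ranged from 2.25 to 7.20 CPM, median 5.10, in intact and from 5.30 to 11.9 CPM, median 6.38, in OVX females, with OVX female 4 the highest, and its log2 fold change was 0.38 without that rat (edgeR adjusted p = 0.57). Below 0 they were Ephb6, a receptor without kinase activity (-0.11, SE 0.05, edgeR adjusted p = 0.426), Rgma (-0.14, SE 0.06, edgeR adjusted p = 0.439) and Sema3a, the secreted repellent best known for collapsing growth cones (-0.23, SE 0.11, edgeR adjusted p = 0.493).

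Marker lists in females gave 0 called genes for meninges and fibroblasts, with sums of 344 ± 146 CPM (SD, n = 6) in intact and 424 ± 88.9 CPM (SD, n = 6) in OVX rats. The endothelial list summed to 142 ± 34.4 CPM (SD, n = 6) and 202 ± 30.7 CPM (SD, n = 6), and 1 of its 9 genes, Kdr, was called higher (log2 fold change 0.77, SE 0.13, edgeR adjusted p = 0.0966). The median log2 fold change of this list was 0.49 in females and 0.49 in males. The neuronal list summed to 17409 ± 1824 CPM (SD, n = 6) in intact and 14466 ± 1509 CPM (SD, n = 6) in OVX females, with 0 of 12 genes called and 5 above 0. Of 9 motor neuron genes tested 0 were above 0 and of 8 genes of pericytes and smooth muscle 8 were, and none was called. The motor neuron median was -0.32. In long against short libraries of intact rats all 9 motor neuron genes were above 0, with a median of 0.41 and 0 called. All OVX libraries are short, and the part of fragment class in this list's difference was not tested.

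**Figure D4:**
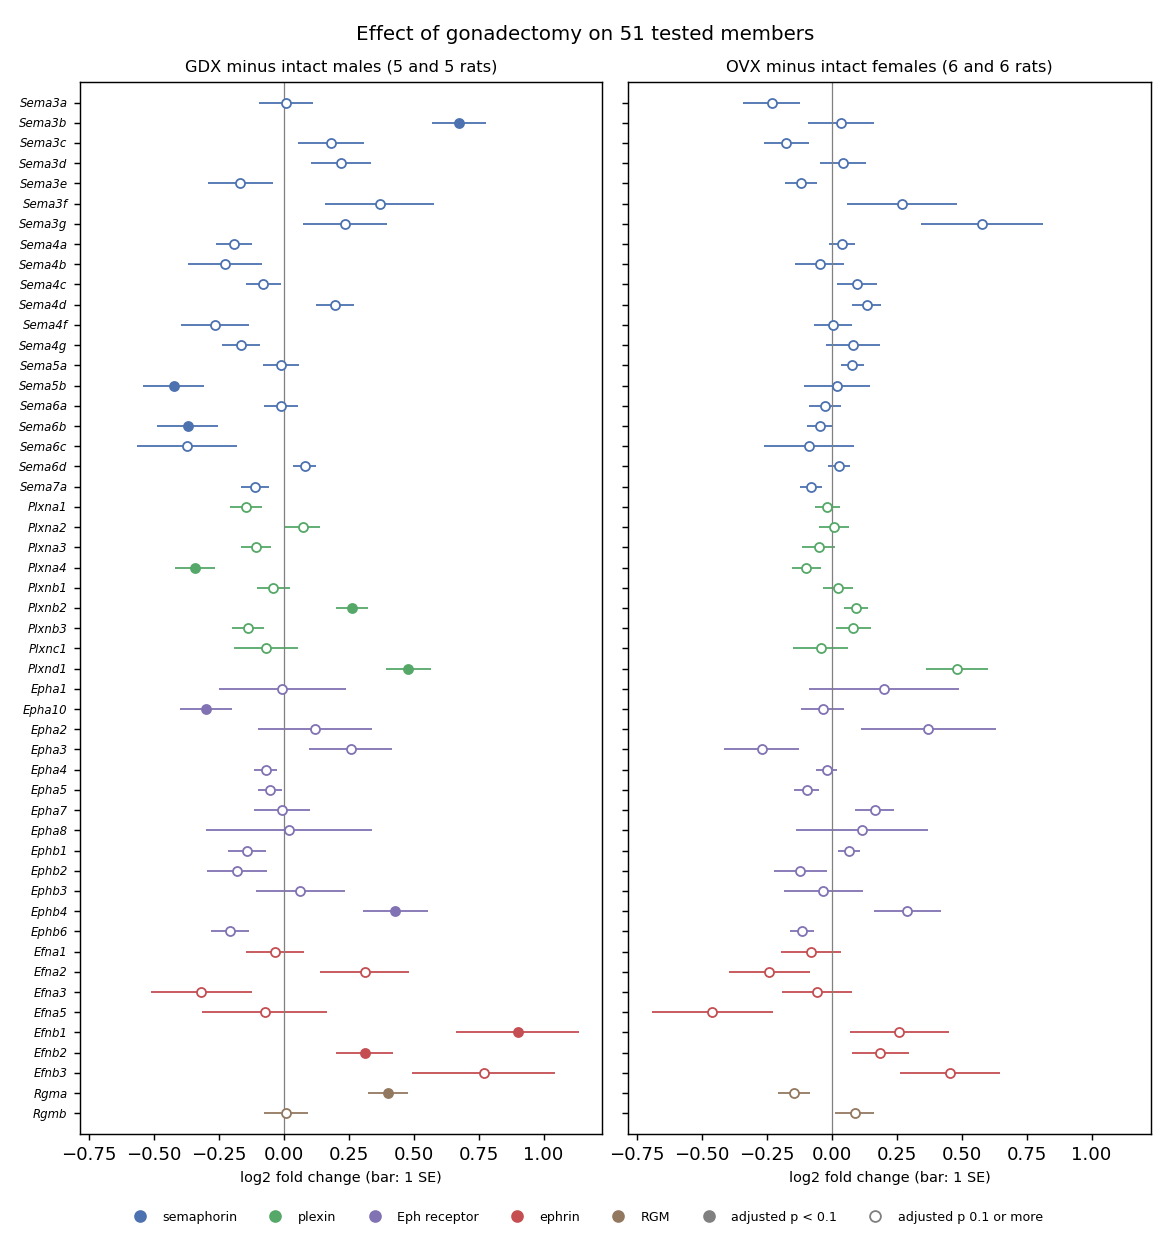
Log2 fold change (bar, 1 SE) of the 51 tested members, by family, for GDX minus intact males on the left and OVX minus intact females on the right; filled points have an adjusted p under 0.1. In males 7 filled points lie above and 4 below 0, in females none is filled, and Plxnd1 lies at 0.48 in both.

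Whether the response differed between the sexes was tested by the interaction of sex and gonadectomy over all 22 rats. It called 1 of 51 members, Rgma, beside 0.116% of 15562 genes. Rgma was at 45.3 to 52.2 CPM, median 49.3, in intact and at 38.4 to 50.8 CPM, median 45.0, in OVX females. GDX males and intact females covered nearly the same range, intact males the lowest and OVX females one between, overlapping both. The male log2 fold change exceeded the female one by 0.55 (SE 0.10, edgeR adjusted p = 0.063). The call ended without GDX male 5 or 6, intact female 3, 5 or 6 or OVX female 2 or 6, with edgeR adjusted p-values from 0.102 to 0.182 and log2 values between 0.52 and 0.55. In short-class libraries alone the value was 0.32 (edgeR adjusted p = 0.442), and with the meninges and fibroblast level as a term 0.48 (edgeR adjusted p = 0.816). With fragment class as a term Rgma was still called, beside 0.0386% of all genes. The 3 next smallest p values on either side of 0 were those of Sema3b (0.64, SE 0.18, edgeR adjusted p = 0.161; DESeq2 adjusted p = 0.0612), of Efna2, an A-class ephrin (0.56, SE 0.22, edgeR adjusted p = 0.319), and of Epha3, a receptor of A-class ephrins (0.53, SE 0.22, edgeR adjusted p = 0.321), above 0, and those of Sema4a (-0.22, SE 0.08, edgeR adjusted p = 0.258), Sema6b (-0.32, SE 0.13, edgeR adjusted p = 0.319) and Sema5b (-0.44, SE 0.18, edgeR adjusted p = 0.327), below 0. For these and for the other members called in males alone, the difference between the sexes did not pass the test with edgeR.

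Intact males and intact females differed in 6 of 51 members, 1 higher and 5 lower in males, beside 4.01% of 14937 genes, 1.45% higher and 2.56% lower. This comparison shares the intact males with that of GDX and intact males, so members low in those 5 rats count in both. Sema3b was lower in intact males (log2 fold change -0.72, SE 0.13, edgeR adjusted p = 0.0101), as were Rgma (-0.38, SE 0.07, edgeR adjusted p = 0.0101) and Plxnb2 (-0.19, SE 0.04, edgeR adjusted p = 0.031). For these 3 no intact male reached the lowest intact female, at 10.8 CPM for Sema3b, 45.3 CPM for Rgma and 61.4 CPM for Plxnb2. Efnb1, from 2.70 to 6.85 CPM with a median of 4.92 in intact females, was also lower in males (-0.82, SE 0.22, edgeR adjusted p = 0.0659), with overlap through intact female 2. Without intact male 2, 5 or 6 or intact female 4, 5 or 6 its edgeR adjusted p was 0.115 to 0.153 and its log2 fold change -0.82 to -0.72.

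Sema3c (ENSRNOG00000006526), a secreted semaphorin of cardiovascular and axonal guidance, was at 21.6, 17.9, 24.8, 17.2 and 24.0 CPM in intact males and ranged from 24.0 to 29.5 CPM, median 25.7, in intact females. Intact males 2 and 5, both of the short class, were the lowest, and intact male 3 lay inside the female range. The log2 fold change was -0.32 (SE 0.09, edgeR adjusted p = 0.0961), and the call was lost without any 1 of 8 rats, namely intact males 1, 2 and 5 and intact females 2 to 6, with edgeR adjusted p-values from 0.11 to 0.21 and log2 fold changes from -0.33 to -0.25. Ephb1 (ENSRNOG00000007865), a receptor of B-class ephrins on neurons, was the 1 member higher in males, at 53.5, 59.8, 50.6, 61.8 and 61.3 CPM against 46.4 to 51.2 CPM, median 47.2, in intact females. Intact male 3 lay inside the female range and the other 4 above it, and the log2 fold change was 0.26 (SE 0.05, edgeR adjusted p = 0.0211). Sema5b (0.43, SE 0.13, edgeR adjusted p = 0.112) and Plxnb3 (0.19, SE 0.07, edgeR adjusted p = 0.17) had the next smallest p above 0 and were not called by edgeR. DESeq2 called 8 members between the intact sexes, these 2 (adjusted p = 0.0547 and 0.0972) and the same 6, beside 5.15% of genes.

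With fragment class as a term 6 members were called between the intact sexes, beside 4.2% of all genes, and they were the same 6. In short-class libraries alone, with 2 males and 2 females, 0 were called beside 0.225% of genes. All 6 kept their sign, with Rgma at -0.15, 0.383 times its value with all intact rats, and Sema3c at -0.61, 1.92 times. With the meninges and fibroblast level as a term 0 were called beside 0.141% of genes, Rgma was at -0.42 and Sema3b at -0.36, and Efnb1 turned to 0.03, with edgeR adjusted p-values from 0.429 to 0.989. Of the 13 genes of that list tested, 11 were called lower in intact males than in intact females, and of 12 neuronal genes Snap25, Slc17a6 and Slc6a5 were called higher.

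GDX males and OVX females, all of the short class, differed in 0 of 51 members with edgeR, beside 0.232% of 15084 genes, and at an unadjusted p under 0.05 there were 3 members and 1413 of all genes. DESeq2 called 1, Sema6d, a transmembrane semaphorin that binds plexin A1, beside 0.838% of genes. Sema6d was at 218, 209, 197, 210 and 206 CPM in GDX males and ranged from 185 to 201 CPM, median 191, in OVX females. GDX male 4 lay inside the female range and the other 4 above it, with a log2 fold change of 0.12 (SE 0.04, edgeR adjusted p = 0.319 and DESeq2 adjusted p = 0.0756). Rgma (0.17, SE 0.07, edgeR adjusted p = 0.451) and Epha5 (0.09, SE 0.04, edgeR adjusted p = 0.566) followed above 0. Sema4f (-0.25, SE 0.11, edgeR adjusted p = 0.515), Sema6c (-0.33, SE 0.17, edgeR adjusted p = 0.556, and -0.21 without GDX male 5) and Plxna4 (-0.15, SE 0.08, edgeR adjusted p = 0.568) had the smallest p below 0.

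Other genes of these pathways were followed in GDX against intact males by lists of partners, with log2 fold changes in brackets, beside the 13.4% called of all genes. Of 12 co-receptors and adaptors of semaphorin signalling tested, 1 was higher and 2 lower: Itgb1, the beta 1 integrin that Sema7a engages (0.23, SE 0.06, edgeR adjusted p = 0.0292), and the adhesion molecules L1cam (-0.36, SE 0.07, edgeR adjusted p = 0.00714) and Nrcam (-0.14, SE 0.04, edgeR adjusted p = 0.0425), which form complexes with neuropilins. The neuropilins themselves, Nrp1 (0.18, SE 0.07, edgeR adjusted p = 0.135) and Nrp2 (0.07, SE 0.06, edgeR adjusted p = 0.539), were not called. Of 12 collapsin response mediators, MICALs and kinases below plexins, 1 was called, the kinase Gsk3b (-0.12, SE 0.04, edgeR adjusted p = 0.0938). Of 12 small GTPases, exchange factors and kinases of plexin signalling, the GTPase Rhoa was higher (0.22, SE 0.04, edgeR adjusted p = 0.00951) and 3 were lower, its exchange factor Arhgef11 (-0.31, SE 0.06, edgeR adjusted p = 0.00951), which binds B-class plexins, and the kinases Limk1 (-0.25, SE 0.05, edgeR adjusted p = 0.00949) and Pak1 (-0.14, SE 0.04, edgeR adjusted p = 0.0388) that act on the actin skeleton.

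Of 16 effectors of Eph receptors and ephrins, the protease Adam10, which cuts ephrins, was higher (0.14, SE 0.04, edgeR adjusted p = 0.062) and the exchange factor Vav3 lower (-0.27, SE 0.07, edgeR adjusted p = 0.0382). Of 9 receptors of repulsive guidance molecules and their partners, the bone morphogenetic protein receptor Bmpr1a was higher (0.13, SE 0.05, edgeR adjusted p = 0.0882) and the netrin receptors Unc5a (-0.60, SE 0.11, edgeR adjusted p = 0.00773) and Unc5d (-0.41, SE 0.10, edgeR adjusted p = 0.0249) were lower. Neo1, the gene of neogenin and the main receptor of Rgma, was not called (0.01, SE 0.04, edgeR adjusted p = 0.936). Of 9 netrins, slits and their receptors tested, Slit1 (-0.42, SE 0.14, edgeR adjusted p = 0.0793) and Slit2 (-0.21, SE 0.06, edgeR adjusted p = 0.049) were lower. Over the 5 partner lists and the list of other guidance genes, 0 genes were called in OVX against intact females, in GDX males against OVX females or in the interaction with edgeR, and 1 was between intact males and females, Unc5a, higher in males (0.29, SE 0.07, edgeR adjusted p = 0.047).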

How the data were processed

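The deposited table of raw counts per gene, made by the authors on build Rnor_6.0, was read as given, with 22 libraries and 32883 genes. The sample labels name FastQC, TopHat2 2.0.13, Subread and edgeR as upstream tools, while the paper names Hisat2 for mapping; which of them made these counts could not be told. Tests were run in R 4.3.3 with edgeR 4.0.16 (filterByExpr, TMM, quasi-likelihood test), limma 3.58.1 and DESeq2 1.42.0 as the other tool. Members were taken by gene symbol. Genes are mainly named when called, when among the smallest p-values of a comparison or when the most abundant of a family. Those called in a marker list are named in part. Some genes that were not called, such as Rgmb, Nrp1, Nrp2 and Neo1, are named too. Members and lists were chosen with earlier results of these data known. Marker lists are reported in part, and 1 item is not reported here.

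Groups hold 5 or 6 rats, and a difference that is not called may be small or may have been missed. Gonadectomy and fragment class overlap, since no GDX or OVX library is of the long class. No sham operation is described, so surgery and loss of the gonad cannot be told apart. Counts are RNA of bulk tissue, without protein, cell type or place in the cord. Promoters are those of a later build than the counts. The cell type marker lists hold few genes each and are not specific to a single cell type.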

Additional observations from a re-analysis of the deposited data

Results flagged for a closer look

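Each group of rats was searched for a single library far from the rest of its group by Dixon's ratio at a level where chance marks about 1 in 20 groups. All 52 members, 6 sums (all members and each family) and 13 marker lists gave 284 groups of values, of which 14 were marked and 14.2 were expected by chance. No library was left out for these marks, and their cause was not tested.

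Among intact males, Efna1 was at 6.27 CPM in intact male 2 (others 7.55 to 8.08), and in intact male 6 Efna4 was at 0.722 CPM (others 0.0619 to 0.226) and Sema6a at 80.4 CPM (others 66.2 to 68.7). In GDX male 2 Epha2 was at 1.45 CPM (others 2.11 to 2.28) and Sema4g at 19.3 CPM (others 16.2 to 16.6).

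In intact female 4 Plxnb1 was at 78.4 CPM (others 97.5 to 105), Plxnb3 at 107 CPM (others 137 to 152) and Sema4g at 13.1 CPM (others 17.3 to 19.3). Epha2 was at 2.87 CPM in intact female 5 (others 1.18 to 1.74). The ephrins summed to 30.3 CPM in intact female 2 (others 37.3 to 39.6), and the ependyma markers to 84.2 CPM in intact female 6 (others 70.1 to 75.2). In OVX female 3 Rgmb was at 18.1 CPM (others 22.4 to 24.5), Sema3d at 22.7 CPM (others 16.1 to 18.2) and Sema4f at 14.0 CPM (others 17.1 to 18.5).

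Rgma was marked because it was the only member called in the interaction of sex and gonadectomy, with a log2 value of 0.55.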

How the results depend on the processing

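Other settings and the leaving out of single rats changed some calls, and the cause was not tested. In GDX against intact males 11 members were called, 12 with DESeq2 (13.8% of all genes against 13.4%), 6 with fragment class as a term, 4 in short-class libraries alone, 0 with the meninges and fibroblast level as a term, and 7 (7.99% of all genes, without GDX male 5) to 15 (16.2%, without GDX male 1) with 1 rat left out. With that meninges term Efnb1 turned to a log2 fold change of -0.19 and Sema6b to 0.0076 in males. Between intact males and females Efnb1 turned to 0.029 and Plxnb3 to -0.0076 with the same term.

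In OVX against intact females 0 members were called with edgeR and 1 with DESeq2. Intact males and females differed in 6 members, 8 with DESeq2, 0 in short-class libraries alone, 0 with the meninges and fibroblast level as a term, and 4 to 9 with 1 rat left out (2.33% to 5.25% of all genes). GDX males and OVX females differed in 0 members with edgeR and 1 with DESeq2.

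The interaction called 1 member, Rgma (0.116% of all genes), 0 at an adjusted p under 0.05 (0.0129%), 2 with DESeq2 (1.63%), 1 with fragment class as a term (Rgma, 0.0386%), 0 in short-class libraries alone (0.0311%), 0 with the meninges and fibroblast level as a term (0.00643%), and 0 to 2 with 1 rat left out (0.00638% to 1.75%).

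With rat number as a replicate block 9 members were called in males (8.53% of all genes), without Efnb1, Efnb2 and Ephb4 and with Sema4d, 4 between the intact sexes (1.71%), without Efnb1 and Sema3c, and 0 in the interaction (0% of genes), where Rgma was at 0.58 (adjusted p 0.107). Rats of a shared number are different animals, and the correlation of their deviations ran from -0.115 to 0.0627, so they were not treated as paired.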
